A study of Sus scrofa with 6 samples.

Results

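The myogenic factors and developmental myosins are 10 genes that were chosen by symbol, namely PAX7, the 4 myogenic regulatory factors MYF5, MYOD1, MYOG and MYF6, the 3 MEF2 factors MEF2A, MEF2C and MEF2D, and the developmental myosin heavy chains MYH3 and MYH8. Each symbol matched 1 Ensembl gene of 31908, and the 10 genes hold 38 of the 83119 transcripts listed. RNA came from the longissimus dorsi (LD) muscle of 6 Laiwu pigs, a Chinese breed known for its high intramuscular fat (IMF). The S-H group held 3 pigs with extremely high IMF content (LW63, LW70 and LW119), and the S-L group held 3 pigs with extremely low IMF content (LW82, LW88 and LW90). All 6 were castrated males by the study's account, and each pig gave 1 library. Neither the labels nor the study's methods name a treatment or genotype that separated the groups. The pigs were picked for their IMF content and not assigned to it, and the RNA is from whole muscle with every cell type it holds.

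PAX7 is a paired-box transcription factor that marks satellite cells, the resident stem cells of skeletal muscle. The myogenic regulatory factors are basic helix-loop-helix proteins that pair with E proteins and bind E-box motifs in muscle genes. MYF5 and MYOD1 commit cells to the muscle lineage, MYOG drives the differentiation of myoblasts, and MYF6, also called MRF4, is known as the main member in mature fibres. MEF2 factors are MADS-box proteins that act together with them on muscle genes. MYH3 encodes the embryonic and MYH8 the perinatal myosin heavy chain, which are known to be replaced by adult myosins after birth and to return during regeneration.

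The values are FPKM (fragments mapped to a transcript, scaled by its length and by the fragments mapped in the library) computed by the authors, and the level of a gene is the sum over its transcripts. FPKM does not give the number of reads behind a value, so the precision is that of the spread between 3 pigs per group. Differences are log2 fold changes of FPKM + 0.1 in S-H against S-L from limma, fitted to 12748 protein-coding genes with a mean of at least 0.1 FPKM. These values understate the change of low genes. A gene passed where its unadjusted p was below 0.01 and its log2 fold change was 1 or more in either direction. The correlation of 2 libraries across the tested genes lay between 0.94 and 0.96, and no pair held identical values. The labelled tissue was checked with 10 skeletal muscle fibre markers. The summed FPKM of the 7 that were found by symbol lay between 18647 and 31879 in the 6 pigs.

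All 10 genes were expressed in every pig and all 10 were tested. None of the 10 passed, against 1.36% of all tested genes, and none had an unadjusted p below 0.05, against 8.17% of all tested genes (limma). The adjusted p over all tested genes lay between 0.608 and 0.928 for the 10 genes (limma), and 0 genes of the whole table had an adjusted p below 0.05, with 0.0766 the lowest. The 2 groups overlapped for all 10 genes, whereas 14.8% of the tested genes showed no overlap. The 95% intervals of the 10 log2 fold changes all included 0, with half-widths from 0.63 to 1.10. They reached as far as -1.86 for PAX7 and 1.52 for MYF5, so changes larger than a half-width remained possible. Detection was simulated only for a log2 fold change of 2, so the smallest detectable change with 3 pigs per group is not known. In whole muscle, fewer cells of a type and less RNA per cell cannot be told apart.

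The mean was lower in S-H for 6 of the 10 genes, namely PAX7, MYOD1, MYF6 and the 3 MEF2 factors, and higher for MYF5, MYOG, MYH3 and MYH8. The median log2 fold change was -0.25 over the 10 genes and 0.21 over all tested genes, of which 25.9% had a lower mean in S-H. The zero point depends on the scaling of the libraries. With levels divided by median-ratio size factors, the median was 0.01 for all tested genes and -0.46 for the 10 genes, and MYOG and MYH8 then also had a lower mean in S-H. The unadjusted limma p of PAX7 was then 0.0214 and that of MEF2D 0.0213. With quantile normalization it was 0.0145 for PAX7, 0.0313 for MEF2D and 0.0395 for MYF6, and with robust variance 0.0479 for PAX7, and in none of these settings did any of the 10 genes pass. Both as deposited and with size factors, 8 of the 10 genes lay below the median of all tested genes. The same step changed the 150 higher and 24 lower genes that passed in the whole table to 85 higher and 56 lower, and quantile normalization gave 70 higher and 63 lower.

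**Figure D1:**
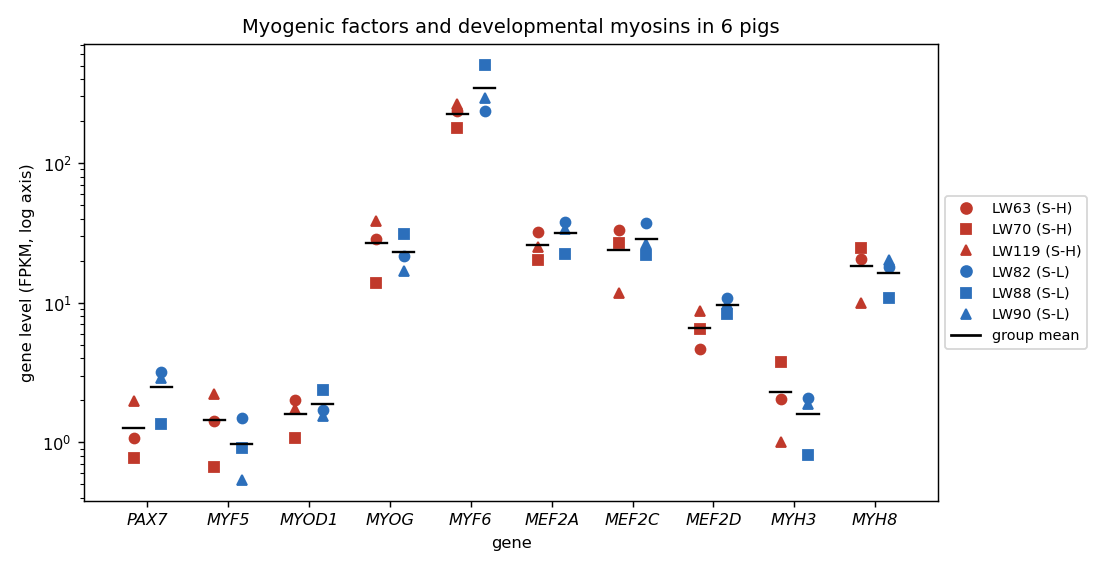
Level of each gene in FPKM on a log axis in the 6 pigs, with S-H pigs in red on the left, S-L pigs in blue on the right and a black bar for each group mean. MYF6 lay between 177.0 and 506.3 FPKM, far above the other 9 genes, and the points of the 2 groups overlapped for every gene.

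Ordered by the mean FPKM over the 6 pigs, MYF6 (285.4 FPKM) was followed by MEF2A (28.6), MEF2C (26.1), MYOG (25.0), MYH8 (17.4), MEF2D (8.13), MYH3 (1.93), PAX7 (1.87), MYOD1 (1.74) and MYF5 (1.21). FPKM is scaled by length, which allows a rough comparison of levels between genes. It is limited by how reads were split among similar genes, such as the myosins. The range of MYF6 over the pigs did not overlap that of MEF2A, and the range of MEF2D did not overlap that of MYH3. All other neighbours in this order had overlapping ranges. MYH8 was still above MEF2D in 6 of 6 pigs, whereas MEF2A was above MEF2C, and MEF2C above MYOG, in 4 of 6. Among all tested genes MYF6 stood at the 99.1st percentile of mean level, MEF2A, MEF2C and MYOG near the 90th (91.0, 90.1 and 89.7), and MYF5 at the 25.5th.

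**Figure D2:**
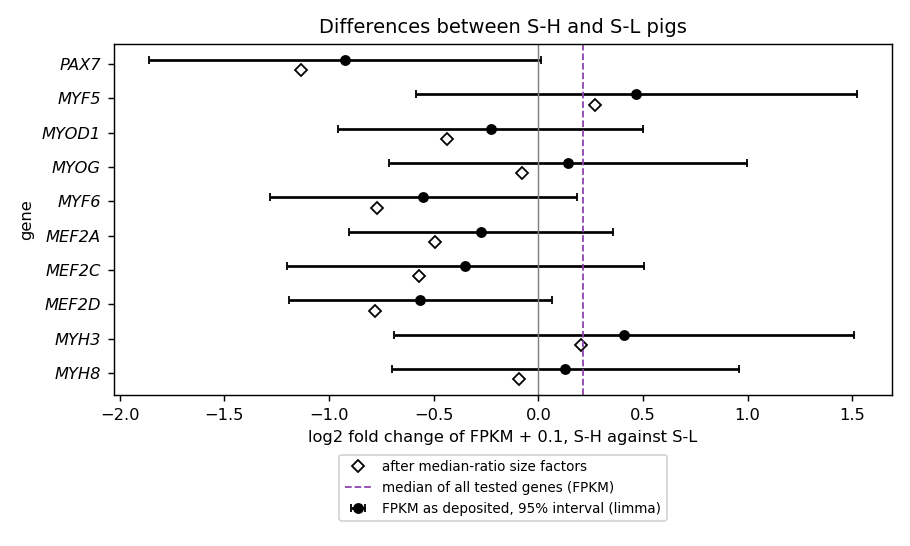
Log2 fold change of FPKM + 0.1 for S-H against S-L, with 95% intervals from limma as black points and bars, the values after median-ratio size factors as open diamonds, and the median of all tested genes as a dashed line. All 10 intervals include 0, and PAX7 (-0.92) and MEF2D (-0.56) have the most negative values.

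PAX7 (ENSSSCG00000034627; Sscrofa11.1 chromosome 6, 77161097 to 77268626) had 1.07 FPKM in LW63, 0.770 in LW70 and 1.96 in LW119, and 3.19 in LW82, 1.36 in LW88 and 2.87 in LW90. LW82 and LW90 were above all S-H pigs, while LW88 lay between LW63 and LW119. The means were 1.27 ± 0.620 FPKM in S-H and 2.48 ± 0.977 FPKM in S-L (SD, n = 3 each). The log2 fold change was -0.92 (standard error 0.42, 95% interval -1.86 to 0.01), and limma gave an unadjusted p of 0.0525, or 0.608 after adjustment. It was the largest difference among the 10 genes. The value depended on which transcripts were counted. PAX7-202 reached 1.92 FPKM in LW82 and 1.91 in LW90, and was at most 0.0765 in the other 4 pigs. PAX7-201 was the main transcript in LW63, LW70 and LW88, where it made up 91.9% or more of the gene level. In LW119 the transcript TCONS_00220452, assembled from the reads by the authors, made up 70.9% of the level. When only Ensembl transcripts were summed, a setting chosen after seeing the data, the groups no longer overlapped (0.570 to 0.983 FPKM in S-H and 1.34 to 2.52 FPKM in S-L). The log2 fold change was then -1.27, with an unadjusted limma p of 0.00513 that passed and an adjusted one of 0.610. With the transcript of highest mean, PAX7-201, in place of the sum, it was 0.15 (unadjusted p of 0.792, limma).

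By the rule set for the gene with the largest difference, 5 genes with a mean of at least 1 FPKM were named whose log2 levels followed PAX7 most closely over the 6 pigs. They were ZEB1 (Pearson r of 0.996), BMPR1B (0.990), FAM185A (0.989), JMJD1C (0.986) and BRAF (0.985). Spearman's rho was 1 for ZEB1, BMPR1B, FAM185A and BRAF and 0.886 for JMJD1C. They are the top of 9024 candidate genes, of which 27 had an r above 0.95, so these coefficients are descriptions of likeness without a test. ZEB1 encodes a zinc-finger repressor and ran from 7.44 FPKM in LW70 to 13.6 in LW82, the pigs that were also lowest and highest for PAX7.

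The 4 myogenic regulatory factors covered a wide range of levels, and none of them passed. MYF5 and MYF6 are neighbours on chromosome 5 of Sscrofa11.1, with 7.415 kb between the end of MYF5 (ENSSSCG00000000937; 100752890 to 100755494) and the start of MYF6 (ENSSSCG00000026533; 100762910 to 100765704). MYF6 had 237.3 FPKM in LW63, 177.0 in LW70 and 264.7 in LW119, and 236.6 in LW82, 506.3 in LW88 and 290.7 in LW90. LW88 stood above all other pigs, and LW82 lay among the S-H pigs. Its log2 fold change was -0.55 (standard error 0.33, 95% interval -1.28 to 0.18, limma p of 0.126, adjusted 0.656). MYF5 had 1.43 FPKM in LW63, 0.666 in LW70 and 2.21 in LW119, and 1.496 in LW82, 0.907 in LW88 and 0.537 in LW90. The highest and the next to lowest pig were both S-H. Its log2 fold change was 0.47 (standard error 0.47, 95% interval -0.58 to 1.52, unadjusted p of 0.344 from limma). The levels of these neighbours did not follow each other over the pigs (Pearson r of -0.06, exact permutation p = 0.918).

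MYOG (ENSSSCG00000034654; chromosome 9, 113782469 to 113785362) had 28.5 FPKM in LW63, 13.8 in LW70 and 38.5 in LW119, and 21.4 in LW82, 31.0 in LW88 and 16.8 in LW90. The S-H group held both the lowest and the highest pig. The log2 fold change of 0.14 (standard error 0.38, 95% interval -0.71 to 0.999, unadjusted p of 0.717 from limma) became -0.08 with median-ratio size factors. MYOD1 (ENSSSCG00000013375; chromosome 2, 41415735 to 41425234) had 2.02 FPKM in LW63, 1.07 in LW70 and 1.73 in LW119, and 1.70 in LW82, 2.36 in LW88 and 1.55 in LW90. Its highest value was 2.20 times its lowest, with a log2 fold change of -0.23 (standard error 0.33, 95% interval -0.96 to 0.50, unadjusted p of 0.501 from limma). LW70 had the lowest level of MYOD1, MYOG and MYF6 alike.

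Shares within a library do not depend on the scaling between libraries, and 9 of them were compared. The share of MYH3 and MYH8 among the myosins does depend on a conversion factor solved for each pig. The test was an exact permutation of the pigs (two-sided), whose smallest possible p with 3 against 3 is 0.1. MYF6 made up 88.8% ± 2.92 of the summed FPKM of the 4 myogenic regulatory factors in S-H and 92.7% ± 1.85 in S-L (SD, n = 3 each) (exact permutation p = 0.2, adjusted over the 9 shares p = 0.6). MYOG made up 10.1% ± 2.72 in S-H and 6.46% ± 1.52 in S-L (SD, n = 3 each) (exact permutation p = 0.2, adjusted p = 0.6). LW70, at 91.9% MYF6, lay within the range of the S-L pigs. MYOD1 and MYF5 each held at most 0.749% of the sum in every pig, with overlapping groups.

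The MEF2 factors had lower means in S-H, with overlapping groups in each case. MEF2A (ENSSSCG00000028771; chromosome 1, 138341153 to 138511311) had 31.9 FPKM in LW63, 20.2 in LW70 and 25.1 in LW119, and 38.1 in LW82, 22.2 in LW88 and 33.9 in LW90. It was the steadiest of the 10 genes, with the highest pig at 1.88 times the lowest. Its range on the log2 scale, 0.91, stood at the 36.9th percentile of all tested genes, whose median range was 1.07. The log2 fold change was -0.27 (standard error 0.28, 95% interval -0.90 to 0.36, unadjusted p of 0.359 from limma).

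MEF2C (ENSSSCG00000014149; chromosome 2, 96122407 to 96296902) had 33.0 FPKM in LW63, 26.7 in LW70 and 11.7 in LW119, and 37.1 in LW82, 22.0 in LW88 and 26.3 in LW90. LW119 alone was far below the other pigs, which ran from 22.0 to 37.1 FPKM. The log2 fold change was -0.35 (standard error 0.38, 95% interval -1.20 to 0.50, unadjusted p of 0.383 from limma), and without LW119 it was 0.10. MEF2D (ENSSSCG00000006482; chromosome 4, 93581598 to 93651639) had 4.67 FPKM in LW63, 6.52 in LW70 and 8.73 in LW119, and 10.8 in LW82, 8.29 in LW88 and 9.79 in LW90. The groups overlapped only because LW119 exceeded LW88. The means were 6.64 ± 2.03 FPKM in S-H and 9.61 ± 1.24 FPKM in S-L (SD, n = 3 each), with a log2 fold change of -0.56 (standard error 0.28, 95% interval -1.19 to 0.06, limma p of 0.0734, adjusted 0.617). As shares of the summed FPKM of the 3 factors, MEF2A, MEF2C and MEF2D took 46.3%, 41.0% and 12.7% on average in S-H and 45.0%, 40.9% and 14.1% in S-L (exact permutation p = 0.8, p = 1 and p = 0.7). LW119 was apart from the rest, at 55.1% MEF2A and 25.7% MEF2C.

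MYH3 and MYH8 flank the adult fast myosins on chromosome 12 of Sscrofa11.1. RefSeq places MYH4, MYH1 and MYH2 between them, and the deposited table counts these 3 as 1 Ensembl gene without a symbol (ENSSSCG00000029441; 55190429 to 55278539). Myosin genes of this cluster are close copies of each other, so the split of reads between them is uncertain. MYH8 (ENSSSCG00000018005; 55134844 to 55167749) had 20.6 FPKM in LW63, 24.8 in LW70 and 10.01 in LW119, and 17.9 in LW82, 10.8 in LW88 and 20.2 in LW90. Both groups held a low pig near 10 FPKM. Its log2 fold change was 0.13 (standard error 0.37, 95% interval -0.70 to 0.96, unadjusted p of 0.736 from limma) and -0.09 with median-ratio size factors. MYH3 (ENSSSCG00000018007; 55347087 to 55375353) had 2.05 FPKM in LW63, 3.77 in LW70 and 1.01 in LW119, and 2.09 in LW82, 0.807 in LW88 and 1.88 in LW90. It varied most of the 10 genes, with the highest pig at 4.67 times the lowest, and its log2 range of 2.09 stood at the 90.9th percentile of all tested genes. The log2 fold change of MYH3 was 0.41 (standard error 0.49, 95% interval -0.69 to 1.51, unadjusted p of 0.425 from limma).

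Beside the developmental myosins, the adult fast gene (MYH1, MYH2 and MYH4 together) averaged 1205 FPKM in S-H (SD 506.7, n = 3) and 1622 FPKM in S-L (SD 392.5, n = 3). MYH7, the slow myosin, averaged 371 FPKM in S-H (SD 60.9, n = 3) and 305 FPKM in S-L (SD 110.5, n = 3). MYH3 and MYH8 together made up 1.39% of the summed FPKM of all these myosins in LW63, 1.33% in LW70 and 1.08% in LW119, and 1.05% in LW82, 0.763% in LW88 and 0.918% in LW90. The groups did not overlap, with the S-H pigs higher, although LW119 and LW82 lay close together. The difference in means was 0.359 percentage points (exact permutation p = 0.1, the smallest possible here, and adjusted over the 9 shares p = 0.6), and it stayed between 0.286 and 0.452 with each pig left out in turn. This share rests on the conversion of the adult fast gene from TPM to FPKM. The factor was 0.639 in LW119 and 0.847 in LW82, the pigs nearest to each other across the groups. Its error was not tested, and leaving pigs out does not vary it. MYH3 was 10.5% ± 2.35 of the sum of MYH3 and MYH8 in S-H and 8.64% ± 1.75 in S-L (SD, n = 3 each), with overlapping groups (exact permutation p = 0.4).

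**Figure D3:**
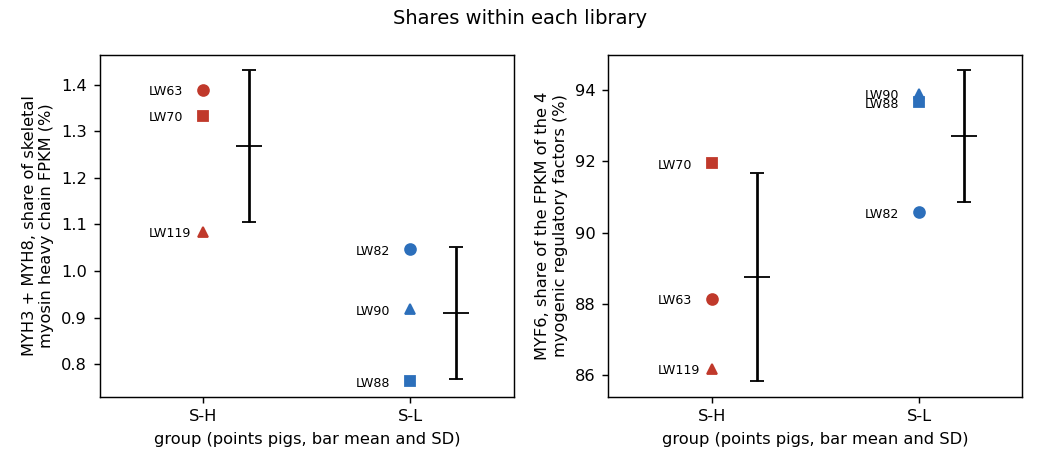
Left, MYH3 and MYH8 as a percentage of the summed FPKM of the skeletal myosin heavy chains, and right, MYF6 as a percentage of the 4 myogenic regulatory factors, per pig, with the group mean and SD beside the points and axes that do not start at 0. The myosin share was 1.08% or more in S-H and 1.05% or less in S-L, while the MYF6 share of LW70 lay among the S-L pigs.

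At the level of single transcripts, 29 of the 38 transcripts reached the minimum mean of 0.1 FPKM. None of the 29 passed, against 1.25% of the 40336 tested transcripts (0.751% higher and 0.496% lower in S-H), and none had an unadjusted p below 0.05, against 5.57% of all (limma). An adjusted p below 0.05 was reached by 0 of the 29 and by 0.0843% of all tested transcripts (limma). Groups without overlap were found for 1 of the 29, against 11.3% of all tested transcripts. This was MEF2D-207, named here because it is the single case, with 0.829 to 1.16 FPKM in S-H and 1.496 to 2.24 FPKM in S-L (log2 fold change -0.74, unadjusted p of 0.0667 from limma). Of the other 9 transcripts, 4 were listed at 0 in all pigs.

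The main transcript of a gene could differ between pigs. MYH8-201 (55134844 to 55167479) carried 85.1% of the MYH8 level in LW63 and 98.3% in LW82, at 17.5 and 17.6 FPKM. In LW70, LW119, LW88 and LW90 it was at most 0.00914 FPKM, and MYH8-204 (55135657 to 55167749) carried 99.9% or more. The 2 pigs with MYH8-201 belong to different groups. MEF2D-203 made up 42.9% of MEF2D in LW63 and 0.172% in LW119, while MEF2D-201 made up 7.62% in LW63 and 77.5% in LW119. MEF2C-202, at 7.32 to 10.3 FPKM in the other 5 pigs, was at 0.913 FPKM in LW119, the pig with the low MEF2C level, and MEF2C-203 was at 2.57 FPKM there against 6.91 FPKM or more elsewhere. MEF2C-204, picked out after its values were seen, made up 9.54% to 17.0% of MEF2C in S-H and 7.02% to 8.64% in S-L. The 17.0% was in LW119, where the MEF2C level was 11.7 FPKM, the lowest of the 6 pigs. The FPKM of MEF2C-204 overlapped between the groups, at 1.996 to 3.19 in S-H and 1.85 to 2.60 in S-L (unadjusted p of 0.311 from limma). How many other transcript shares showed no overlap was not counted. Differences in transcript shares were not tested. Transcripts assembled from the reads made up between 20.02% and 53.2% of the MEF2C level. MYOG and MYOD1 had a single listed transcript each, and MYF6-201 held at least 99.3% of the MYF6 level in every pig. Transcripts that overlap over most of their length share reads, so these splits are estimates of the authors' quantification, and their error was not tested.

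**Figure D4:**
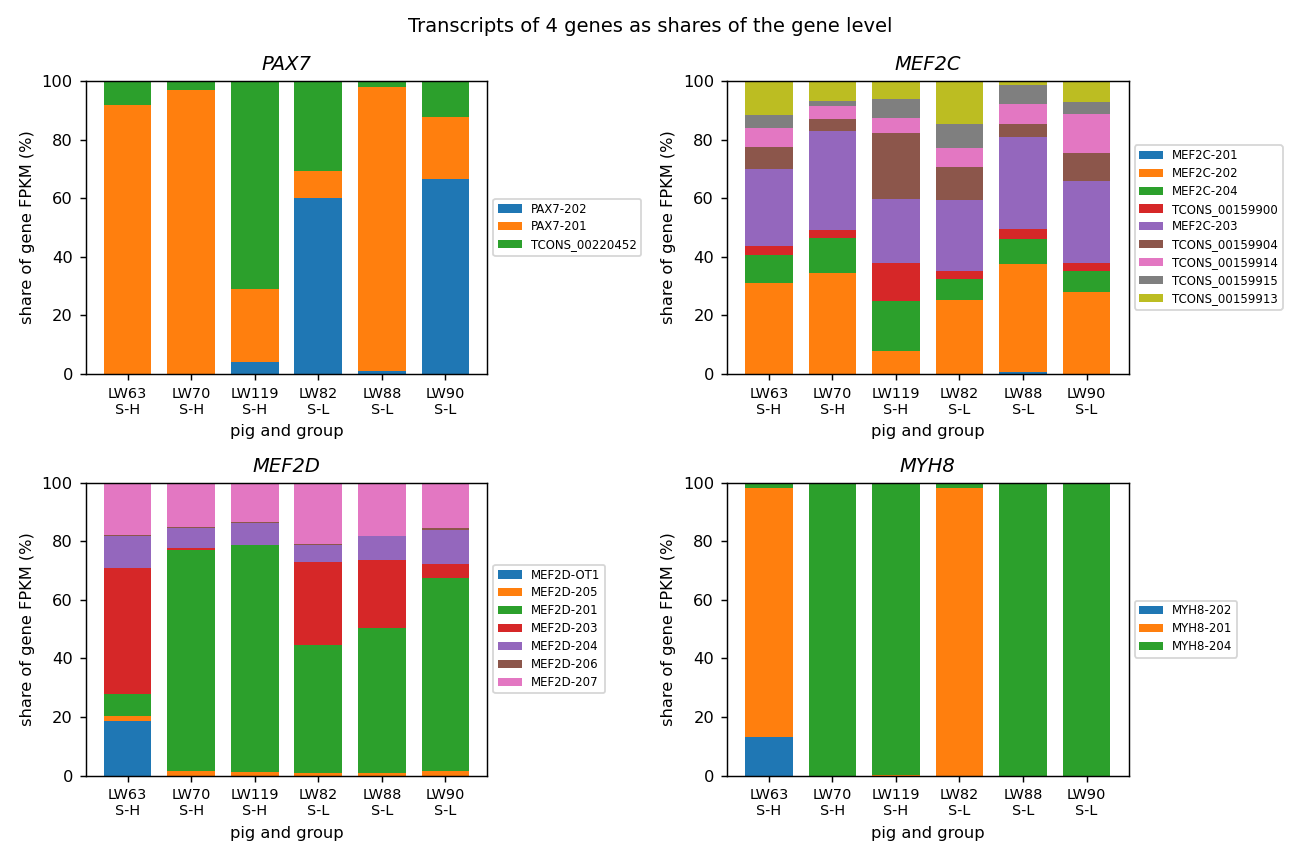
Share of the gene level in percent held by each transcript of PAX7, MEF2C, MEF2D and MYH8 in the 6 pigs, as stacked bars. MYH8-201 dominates in LW63 and LW82 and MYH8-204 in the other 4 pigs, and PAX7-202 is seen mainly in LW82 and LW90.

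Over the 6 pigs, levels were compared between the members for all 45 pairs on log2(FPKM + 0.1), with exact permutation of the 720 pairings. No pair had an adjusted p below 0.05, and 5 had an unadjusted p below 0.05. MYH3 and MYH8 varied together (Pearson r of 0.945, exact permutation p = 0.0153, adjusted p = 0.348, Spearman's rho of 0.771, exact permutation p = 0.103), and r was 0.961 without LW70 and LW88, the pigs farthest from the median of MYH3. Outside these 45 pairs, both were also compared with other myosins. With MYH13, also on chromosome 12, r was 0.932 for MYH3 (exact permutation p = 0.0153) and 0.870 for MYH8 (exact permutation p = 0.00556). It was 0.826 (exact permutation p = 0.0389) and 0.747 (exact permutation p = 0.0931) with MYH7. With the adult fast gene it was 0.571 (exact permutation p = 0.239) and 0.724 (exact permutation p = 0.0861). No adjusted p was below 0.05 (exact permutation). Without LW70 and LW88, r for MYH3 was 0.976, 0.764 and 0.801 in the same order. Without LW119 and LW88, r for MYH8 was 0.876, 0.0336 and 0.206. Its relations with MYH7 and the adult fast gene thus rest largely on those pigs. MYOG was inversely related to MYH8 (r of -0.847, exact permutation p = 0.0403, rho of -0.829, exact permutation p = 0.0583) and to MYH3 (r of -0.836, exact permutation p = 0.0389, rho of -0.771, exact permutation p = 0.103). The adjusted p was 0.348 for both. Without LW119 and LW70 the coefficients were -0.598 and -0.577, so these relations rest largely on those pigs. MYF6 and MYH3 had an r of -0.858 (exact permutation p = 0.0264, adjusted p = 0.348, rho of -0.943, exact permutation p = 0.0167), which was -0.345 without LW70 and LW88. PAX7 and MEF2D had an r of 0.824 (exact permutation p = 0.0361, adjusted p = 0.348, rho of 0.943, exact permutation p = 0.0167), and 0.836 without LW70 and LW82. With deviations from the group means, r was 0.957 for MYH3 and MYH8, -0.881 for MYOG and MYH8, -0.928 for MYOG and MYH3, -0.888 for MYF6 and MYH3 and 0.669 for PAX7 and MEF2D. With levels divided by size factors, r was 0.940 for MYH3 and MYH8, -0.901 for MYOG and MYH8, -0.981 for MYOG and MYH3, -0.549 for MYF6 and MYH3 and 0.845 for PAX7 and MEF2D. Of the 45 coefficients 28 were then positive, against 22 without size factors, with 6 unadjusted p below 0.05 and 0 adjusted (exact permutation).

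**Figure D5:**
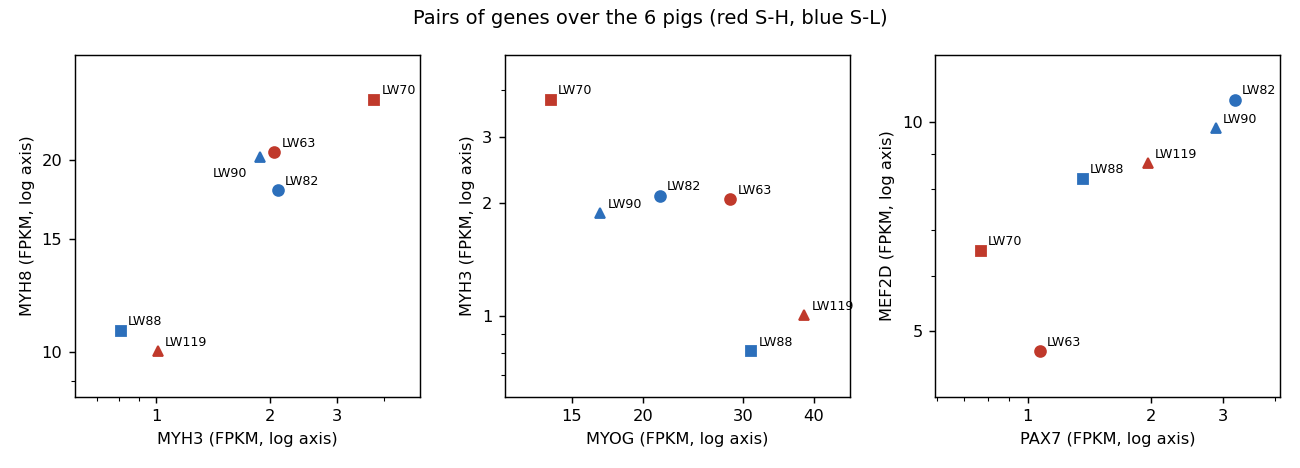
FPKM of MYH8 against MYH3, MYH3 against MYOG and MEF2D against PAX7 in the 6 pigs, on log axes, with S-H pigs in red and S-L pigs in blue. LW88 and LW119 are lowest for both developmental myosins and highest for MYOG, with Pearson r of 0.945, -0.836 and 0.824 from left to right.

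Other genes of the myogenic pathway were read from lists written from general knowledge. Over these lists 89 different genes were tested, of which 3 passed higher and 0 lower in S-H, against 1.18% of all tested genes that passed higher and 0.188% that passed lower. The 3 genes were ID4, JAM3 and CHRNA1. ID4, an inhibitor that keeps helix-loop-helix factors from binding DNA, had 5.52, 4.28 and 4.73 FPKM in LW63, LW70 and LW119 and 2.11, 1.47 and 1.80 FPKM in LW82, LW88 and LW90 (log2 fold change 1.39 with a standard error of 0.27, limma adjusted p of 0.285). JAM3, a junctional adhesion molecule, ran from 5.62 to 6.56 FPKM in S-H and from 1.41 to 1.97 FPKM in S-L (log2 fold change 1.74 with a standard error of 0.26, limma adjusted p of 0.114). CHRNA1, the alpha subunit of the muscle acetylcholine receptor, had 1.82 to 5.71 FPKM in S-H and 0.710 to 1.34 FPKM in S-L (log2 fold change 1.48 with a standard error of 0.42, limma adjusted p of 0.545). CHRNA1 no longer passed without LW63, LW119, LW82 or LW90, without a minimum level, or when only its most abundant transcript was used. No other gene of these lists passed.

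By role, the 3 E proteins were tested and none passed, with TCF12 at a mean of 22.7 FPKM in S-H and 25.8 in S-L and TCF4 at 21.4 and 19.8. Of 12 tested helix-loop-helix inhibitors 1 passed (ID4), and the 2 most abundant, ID3 (log2 fold change 0.29) and ID1 (-0.40), did not. Among 11 repressors and co-factors of MEF2 none passed. VGLL2, a co-factor of TEAD and MEF2, had 5.90 to 10.04 FPKM in S-H and 12.0 to 18.1 FPKM in S-L, with an unadjusted p below the threshold but a log2 fold change of -0.95 (unadjusted p of 0.00736 from limma). It passed with median-ratio size factors at -1.17. Among 14 upstream regulators none passed, and EYA4 had 23.5 to 56.7 FPKM in S-H and 54.8 to 76.8 in S-L. None of 13 satellite cell markers passed, and 3 of them had a lower mean in S-H, a share close to the 25.9% of all tested genes. An unadjusted p below 0.05 was reached by 3 of the 13, against 8.17% of all tested genes (limma). Groups without overlap were found for 1 of the 13, against 14.8%. The list summed to 145 to 226 FPKM in S-H and 123 to 129 FPKM in S-L, while the groups overlapped for VCAM1 and ITGB1, its most abundant genes. The sums were not scaled by size factors. With median-ratio size factors the log2 fold change went from 0.52 to 0.30 for VCAM1 and from 0.65 to 0.43 for ITGB1. A difference in the number of satellite cells was not tested. CXCR4 was the marker with the largest difference (log2 fold change 0.89, unadjusted p of 0.0189 from limma, and 0.67 with median-ratio size factors).

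Of 7 tested genes of myoblast fusion 1 passed (JAM3), and of 11 other developmental and regeneration genes 1 passed (CHRNA1), while CHRND was listed at 0 in all pigs. ANKRD1, a stress-induced ankyrin repeat protein, ran from 27.8 FPKM in LW70 to 717 in LW119, both S-H pigs. None of 3 adult myosin heavy chains with a symbol and none of 17 target genes in adult muscle passed. TNNI2, fast troponin I, had 30.6 FPKM in LW82, 47.7 in LW63, 53.5 in LW70 and 720 in LW119, against 4210 in LW88 and 4451 in LW90. MYLPF, on the same list, ran only from 6701 to 14386 FPKM, with 7653 in LW82. The cause of the wide range of TNNI2 was not tested. Without LW82, TNNI2 passed with a log2 fold change of -5.14. The median log2 fold change lay between -0.02 for the helix-loop-helix inhibitors and 0.28 for the adult myosins, beside 0.21 for all tested genes.

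Some markers of other cell types passed, against 1.36% of all tested genes, none of them with an adjusted p below 0.05 (limma). The sums given here are of FPKM as deposited and were not scaled by size factors. Of 10 adipocyte markers 9 were found, none of them at 0 in all pigs. Of these, 5 passed (ADIPOQ, PLIN1, FABP4, LEP and CIDEC), all higher in S-H, with adjusted p from 0.464 to 0.537 (limma). The list had a summed level of 523 to 1425 FPKM in S-H and 361 to 471 FPKM in S-L. Of 6 endothelial markers 1 passed (CLDN5, log2 fold change 1.87, limma adjusted p of 0.415), with sums of 106 to 130 FPKM in S-H and 63.3 to 101.5 FPKM in S-L. The 7 immune markers summed to 135 to 174 FPKM in S-H and 101 to 113 FPKM in S-L, and none passed. Most of this sum was CD79A, at 116 to 145 FPKM in S-H and 88.9 to 100.4 FPKM in S-L, whereas the groups overlapped for CSF1R and CD68. The log2 fold change of CD79A was 0.47, and 0.25 with median-ratio size factors. No marker passed among 7 of fibroblasts and fibro-adipogenic cells (327 to 659 FPKM in S-H and 350 to 548 in S-L), 5 of nerve (17.5 to 38.5 and 24.9 to 54.8), 4 of cardiac and smooth muscle (29.1 to 44.2 and 27.4 to 44.4) or 6 of skeletal muscle fibres. The part of these cells in the levels of ID4, JAM3, CHRNA1 or the 10 genes was not tested.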

How the data were processed

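Strand-specific libraries depleted of ribosomal RNA were made from the LD muscle of 6 pigs (3 S-H, 3 S-L). Per the labels and methods, the authors aligned the reads with HISAT2 to Sus scrofa 11.1 and quantified known and assembled transcripts with StringTie, versions not given in the sources used here. The deposited values are FPKM per transcript for assembled transcripts and those with a symbol, and TPM for the other 21104 transcripts, all from Ensembl. The TPM values were multiplied by 1 factor per pig (0.639 to 0.847), solved from a total of 1000000 TPM per library. All 10 members are in FPKM as deposited. FPKM does not give the reads behind a value, and the library depths stated by the study were not used here.

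FPKM was summed by gene ID. Genes were typed by RefSeq (Sscrofa11.1), by symbol for 13901 and by 50% reciprocal overlap for 4666, and 17093 were protein-coding. The limma 3.58.1 fit (R 4.3.3, variance trend, two-sided) on log2(FPKM + 0.1) used a minimum mean of 0.1 FPKM, for genes and for transcripts, with Benjamini-Hochberg adjustment over all tested. The thresholds are those of the study. Shares and correlations were tested by exact permutation (Python 3.11.15, numpy 2.4.6, scipy 1.17.1, pandas 2.3.3, figures with matplotlib 3.10.9). On simulated data with 200 of 12748 genes changed by a log2 fold change of 2, the limma fit recovered 177, and 66 unchanged genes passed.

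The genes named were all 10 members and, of each of 16 lists, those that passed, the 2 of highest mean and the 1 of largest change, with examples given. Of the 155 different list genes, 140 were found by symbol. The members and lists were chosen with earlier results of these data known. Alternatives were other pseudocounts, minimum levels and scalings, limma without trend or with robust variance, single transcripts, another gene set, each pig left out and, after seeing the data, sums without assembled transcripts or without MEF2D-OT1.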

Additional observations from a re-analysis of the deposited data

How the results depend on the processing

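No paired analysis was possible because S-H and S-L hold different animals, and the labels do not pair them (replicate numbers here follow accession order). Each of the 10 genes was recomputed under 19 other settings, which gave 190 values, of which 179 kept their direction and 1 passed. Many of the 179 could not turn. Other minimum levels, another gene set, and limma without trend or with robust variance change the p but leave the fold change as it was. Settings on assembled or single transcripts also leave genes without such transcripts as they were. The 1 value that passed was PAX7 from Ensembl transcripts only (-1.27, setting chosen after seeing the data), so that 1 of the 10 genes passed there and 0 under every other setting. PAX7 turned to 0.15 with the transcript of highest mean. MYOG turned to -0.077 and MYH8 to -0.090 with median-ratio size factors, and MYH8 to -0.050 with quantile normalization. When single pigs were left out, log2 fold changes ran from -0.40 to 0.020 for MYOD1 (turned without LW70), from -0.17 to 0.56 for MYOG (turned without LW119 or LW90), from -0.65 to 0.10 for MEF2C (turned without LW119), from -0.032 to 0.87 for MYH3 (turned without LW70) and from -0.14 to 0.52 for MYH8 (turned without LW70 or LW88). MYF5, MYF6, MEF2A and MEF2D kept their direction in all 19 settings. With each pig left out, between 0 and 1 member transcripts passed, MEF2D-203 without LW63 (-3.59) and PAX7-202 without LW88 (-4.06). Of all 40336 tested transcripts, 609 passed without LW63 and 698 without LW88. Both member transcripts were near 0 in some pigs, MEF2D-203 at 0.015 FPKM in LW119 and PAX7-202 at 0 in LW63 and LW70.

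Among the myogenic list genes, 5 passed with median-ratio size factors, where VGLL2 and NCAM1 joined as lower in S-H, and between 3 and 5 with each pig left out (5 without LW70 and 5 without LW119). With quantile normalization CASQ1, NCAM1 and VGLL2 joined. Over all tested genes 174 passed, against 78 with a pseudocount of 1 and 86 without LW90, and 503 transcripts, against 227 with a pseudocount of 1 and 181 with a minimum mean of 1 FPKM. The causes were not tested. What read depth limits was not computed, since FPKM holds no counts.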

Other observations

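Assembled transcripts overlap some of the members. TCONS_00276679 (chromosome 9, 113782615 to 113785755), which carries no gene symbol, overlaps MYOG by 2748 bases and had 2.41 FPKM in LW63, 1.17 in LW70 and 3.33 in LW119, and 1.94 in LW82, 2.61 in LW88 and 1.07 in LW90. LW119 was the highest pig for this transcript and for MYOG. Its strand is not in the columns used here. TCONS_00053502 (chromosome 12, 55052095 to 55138445), named as antisense to the MYH8 gene, overlaps MYH8 by 3602 bases. It lay between 4.35 and 6.61 FPKM in the S-H pigs and between 3.09 and 11.8 FPKM in the S-L pigs, and it did not pass (log2 fold change -0.27, unadjusted p of 0.618 from limma).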
